A study of Arabidopsis thaliana with 30 samples.

Results

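The comparison set leaves of a WRKY63 knockout of Arabidopsis thaliana against leaves of its wild type, over untreated plants and plants given high light. Its members are the 12 arrays, of 30 in the series, whose titles name Atwrky63 or Col0 alone: 6 WRKY63 knockout arrays (3 high light, 3 untreated) and 6 Col0 arrays (3 high light, 3 untreated), written Col-0 below. All plants were grown on soil to 21 days, and the treated ones received 1000 µE per square metre and second for 1 h before freezing. The labels give the genotype as "Atwrky63 KO" without an allele, an insertion site or a statement on residual transcript, and the plants of both genotypes were handled alike. The other 18 arrays hold a WRKY40 knockout and an overexpressor of each of WRKY40 and WRKY63, each with 3 arrays per light. Whether the replicates are separate plants is not stated in the labels, so each p-value reflects only how far these arrays scatter, and that scatter may be technical.

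WRKY proteins are plant transcription factors that bind W-box elements in promoters and take part in responses to pathogens, abscisic acid and abiotic stress. WRKY63, also called ABO3, is known from work on abscisic acid and drought responses, and it has been linked with WRKY40 to stress-responsive genes for mitochondrial and chloroplast proteins. Excess light raises reactive oxygen in chloroplasts and warms the leaf, and leaves answer within the hour with transcripts for heat shock proteins and antioxidant enzymes.

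Each array carries 1 signal intensity per probe set, a group of short probes for one transcript, scaled by the authors to a common mean. Differences below are WRKY63 knockout minus Col-0 on the log2(signal + 1) scale with limma's standard error (SE). Calls are those with a p under 0.05 after Benjamini-Hochberg adjustment over all probe sets of a comparison. In whole leaves, fewer cells of a type and less RNA per cell cannot be told apart.

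No probe set was named WRKY63 in the annotation used here, so the knockout was not checked on its own transcript. WRKY40, WRKY60, WRKY18, AOX1A and BCS1 were not named either. The leaf identity of the samples was read from RCA, the activase of Rubisco, and LHCB4.2, a light-harvesting protein of photosystem II. RCA had signals of 27020, 23460 and 23480 in untreated knockout leaves, against 28440, 31760 and 27260 in untreated Col-0 leaves, and both genes were among the bright probe sets of every array. Among root markers PYK10, a beta-glucosidase, stood at 169.7 to 682.4 in the knockout and 74.1 to 755 in Col-0, and EXPA18, a root hair expansin, stayed between 9.65 and 84.1 in the knockout and between 13.8 and 81.5 in Col-0. No flower, pollen or seed marker was named by the annotation.

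The 12 arrays were alike in quality, with 1 exception by the actin probe set pair used here and by correlation. The log2 ratio of 3' to 5' actin signal, a sign of RNA quality, ran from 1.45 to 2.35 with a median of 1.67, and it averaged 1.63 in the knockout and 1.79 in Col-0 (difference -0.162, two-sided exact permutation p = 0.275 within light, smallest possible 0.005). Col-0 untreated replicate 2 had the highest ratio, 2.35, and the lowest mean correlation with the other arrays of its group (0.956, in a range up to 0.979). A second actin probe set pair ranked the arrays otherwise. By that pair Col-0 high light replicate 3 (5.06) was among the 2 highest arrays of the series, and Col-0 untreated replicate 2 was not. Several results below change when Col-0 untreated replicate 2 is left out, and such values are given beside the genes named for untreated leaves.

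Over both lights the knockout differed from Col-0 in few transcripts, and more of the calls were lower than higher, a balance that turned to 13 higher and 11 lower in a fit to the 12 arrays alone. Of 15922 probe sets tested, limma called 39 (0.245%), of which 28 (0.176%) were lower and 11 (0.0691%) higher in the knockout. The median difference of all probe sets was 0.02. Of the 39, 15 were at least 2-fold lower, 2 at least 2-fold higher, and 22 differed by less than 2-fold. The annotation named 22 of them, 19 lower and 3 higher. The median 95% half-width of a difference was 0.28, and 77 of the 94 probe sets that differed by 2-fold or more were not called. On simulated data with this design 47% of planted differences of 0.5 and 85% of planted differences of 1 were recovered, with 9 false calls. Those shares hold for the spread of the simulated data. They are not the power for dim or noisy probe sets here, where most observed differences of 2-fold or more were not called.

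All 39 differences had the same sign in both lights. They were called on the mean of the 2 within-light differences, which favours equal signs, so that count is no separate support for them. In 24 of the 39 the 3 knockout arrays and the 3 Col-0 arrays did not overlap in either light, in the direction of the difference. This also held for 287 of all 15922 probe sets (1.8%, 0.842% lower and 0.961% higher). The 15 named among the 24, 12 lower and 3 higher, are described below, together with called members of the gene lists.

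The transcript of QQS, a gene known only from Arabidopsis that influences how leaf carbon is divided between starch and protein, was lower in the knockout in both lights. Its signals in untreated leaves were 127, 65.3 and 89.0 in the knockout, against 243, 291 and 334 in Col-0. After high light they were 111, 66.0 and 129.9 in the knockout, against 722, 1004 and 821 in Col-0. Knockout signals lay in the same range in both lights, whereas every Col-0 array after high light exceeded every untreated one. The difference was -2.37 ± 0.36 over both lights (adjusted p = 0.00203), with -1.66 in untreated leaves and -3.08 in high light, where it was called on its own (limma, adjusted p = 0.0166). The test of a change of the difference with light did not reach a call (-1.43 ± 0.72, limma adjusted p = 0.534).

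In the other lines QQS spanned a wide range. The WRKY40 knockout was lower still, with 5.04 to 36.6 on its 6 arrays, while the WRKY63 overexpressor had 249 to 683 and the WRKY40 overexpressor 237 to 1304. The WRKY63 knockout was not called against the mean of the other 3 lines (-0.53 ± 0.29, adjusted p = 0.291), and the WRKY63 overexpressor exceeded it by 2.13 ± 0.36 (limma, adjusted p = 1.19e-04). These comparisons use the same knockout arrays as the one with Col-0.

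**Figure D1:**
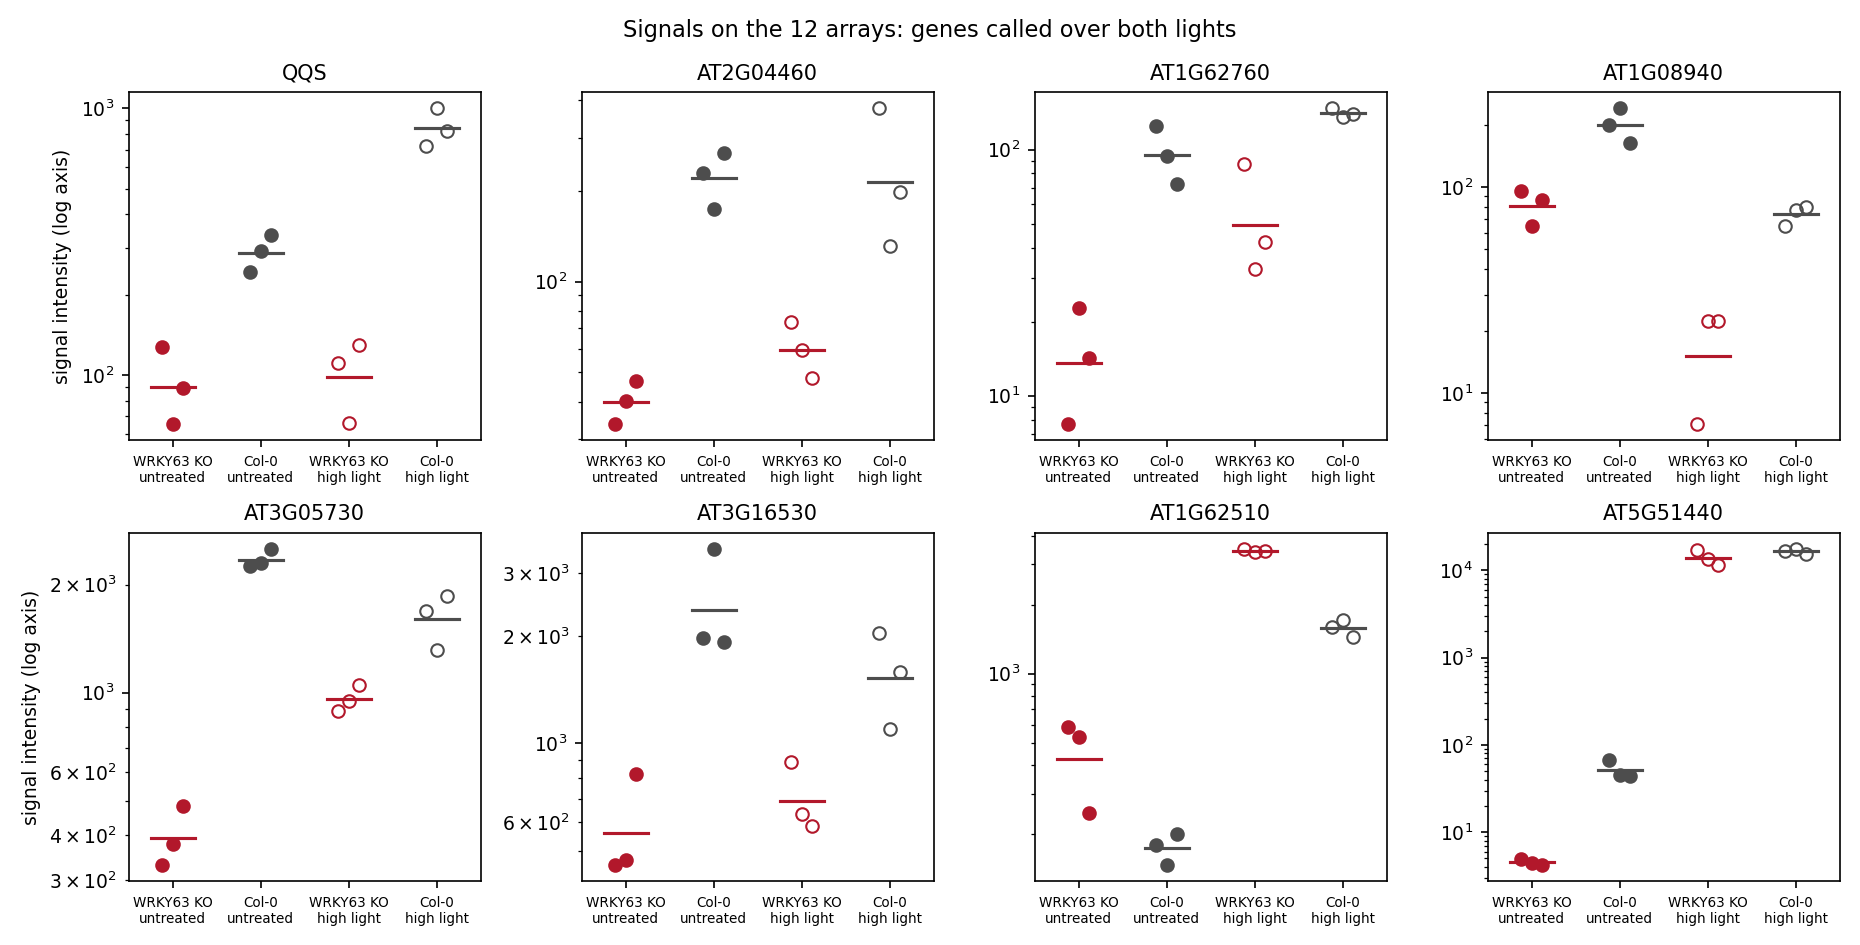
Signal intensity (log axis) on each of the 12 arrays for 8 genes called over both lights, with WRKY63 knockout in red and Col-0 in grey, untreated arrays filled, high light arrays open, and the mean of log2(signal) as a bar. QQS, AT2G04460, AT1G62760, AT1G08940, AT3G05730 and AT3G16530 lie lower in the knockout in both lights, AT1G62510 lies higher in both, and AT5G51440 separates the genotypes in untreated leaves alone.

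AT2G04460, a pseudogene in the RefSeq annotation, had the next largest difference among the named genes whose arrays did not overlap. It read 33.7, 40.1 and 47.0 in untreated knockout leaves, against 229.5, 174 and 266 in untreated Col-0 leaves. High light gave 73.7, 59.3 and 47.9 in the knockout, against 377, 131 and 198 in Col-0. All knockout arrays were below all Col-0 arrays, across both lights. The difference was -2.13 ± 0.35 (adjusted p = 0.00476), and the knockout was also below the mean of the other 3 lines (-1.96 ± 0.28, limma adjusted p = 3.01e-05). Of those lines the WRKY40 knockout was also below Col-0 in each light. It had 134, 81.2 and 84.3 in untreated leaves, above the WRKY63 knockout. In high light it had 116, 52.8 and 78, overlapping the WRKY63 knockout. Untreated leaves of the WRKY40 overexpressor had 82.9, 357 and 72.9. The WRKY63 overexpressor had 502, 467 and 539 in untreated leaves and exceeded the WRKY63 knockout by 3.11 ± 0.35 over both lights.

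AT1G62760, a member of the invertase and pectin methylesterase inhibitor family, was dim in the knockout. Its untreated signals were 7.66, 22.8 and 14.3 in the knockout, against 125, 93.9 and 72.7 in Col-0. In high light they were 87.1, 32.9 and 42.2 in the knockout, against 148, 136 and 140.1 in Col-0. The difference was -2.10 ± 0.28 (adjusted p = 2.68e-04), larger in untreated leaves (-2.71) than in high light (-1.49), and the test of that change with light did not reach a call. Low signals carry more noise on this scale, and with a pseudocount of 16 the gene was still called.

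AT1G08940, of the phosphoglycerate mutase family, was lower in the knockout by 1.74 on the log2 scale (-1.74 ± 0.29, adjusted p = 0.00476). It had 95.6, 64.9 and 86.6 in untreated knockout leaves, against 199, 242 and 164 in untreated Col-0 leaves. High light values were 7.05, 22.3 and 22.3 in the knockout, against 64.9, 77.4 and 79.8 in Col-0. The genotypes did not overlap in either light, and this gene was 1 of 4 called in high light tested on its own (-2.19, limma adjusted p = 0.0449). Against the other 3 lines the knockout was lower by -2.02 ± 0.23.

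AT3G05730 encodes a defensin-like protein, of the family of small cysteine-rich secreted peptides that includes antimicrobial defensins. Its signals in untreated leaves were 330, 378 and 484 in the knockout, against 2247, 2293 and 2516 in Col-0. In high light they were 889.6, 945 and 1048 in the knockout, against 1684, 1313 and 1855 in Col-0. The knockout was lower on every array of both lights, and the gap was wider in untreated leaves (-2.58) than in high light (-0.74). Over both lights the difference was -1.66 ± 0.19 (adjusted p = 5.59e-05), and the difference against the other 3 lines was -1.09 ± 0.15. Of those lines the WRKY40 knockout was low too: untreated means were 397 ± 78.5 in the WRKY63 knockout and 620.4 ± 207 in the WRKY40 knockout, and high light means were 961 ± 80.5 in the WRKY63 knockout and 676 ± 97.9 in the WRKY40 knockout (SD, n = 3 each).

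AT3G16530, a legume lectin family protein, completed the group of strongly lower genes. It had 455, 472 and 820.4 in untreated knockout leaves, against 1969, 3505 and 1926 in untreated Col-0 leaves. High light signals were 888, 632 and 585 in the knockout, against 2042, 1100 and 1585 in Col-0. The difference was -1.61 ± 0.24 (adjusted p = 0.00196). The knockout was not called against the other 3 lines (-0.25 ± 0.20, adjusted p = 0.498) or against the WRKY63 overexpressor, which stood 0.28 ± 0.24 above it (limma, adjusted p = 0.468). Means of untreated leaves were 583 ± 206 for the knockout, 912 ± 108 for the WRKY63 overexpressor and 2466 ± 899.5 for Col-0 (SD, n = 3 each).

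AT1G62510, of the family of lipid-transfer proteins and seed storage albumins, was the named gene with the largest rise. Untreated signals were 584, 533 and 248 in the knockout, against 180.2, 146.5 and 201 in Col-0. High light signals were 3501, 3400 and 3422 in the knockout, against 1605, 1721 and 1447 in Col-0. Both genotypes were brighter in high light, and the knockout was higher than Col-0 in each light. Untreated leaves of the WRKY40 overexpressor had 401, 197 and 348, overlapping the knockout. The knockout was 2.30-fold higher over both lights (95% interval of the log2 difference 0.78 to 1.62, adjusted p = 0.00653), with 1.08 ± 0.17 against the other 3 lines, and the WRKY63 overexpressor stood below the knockout by a log2 difference of -1.31 ± 0.20.

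**Figure D2:**
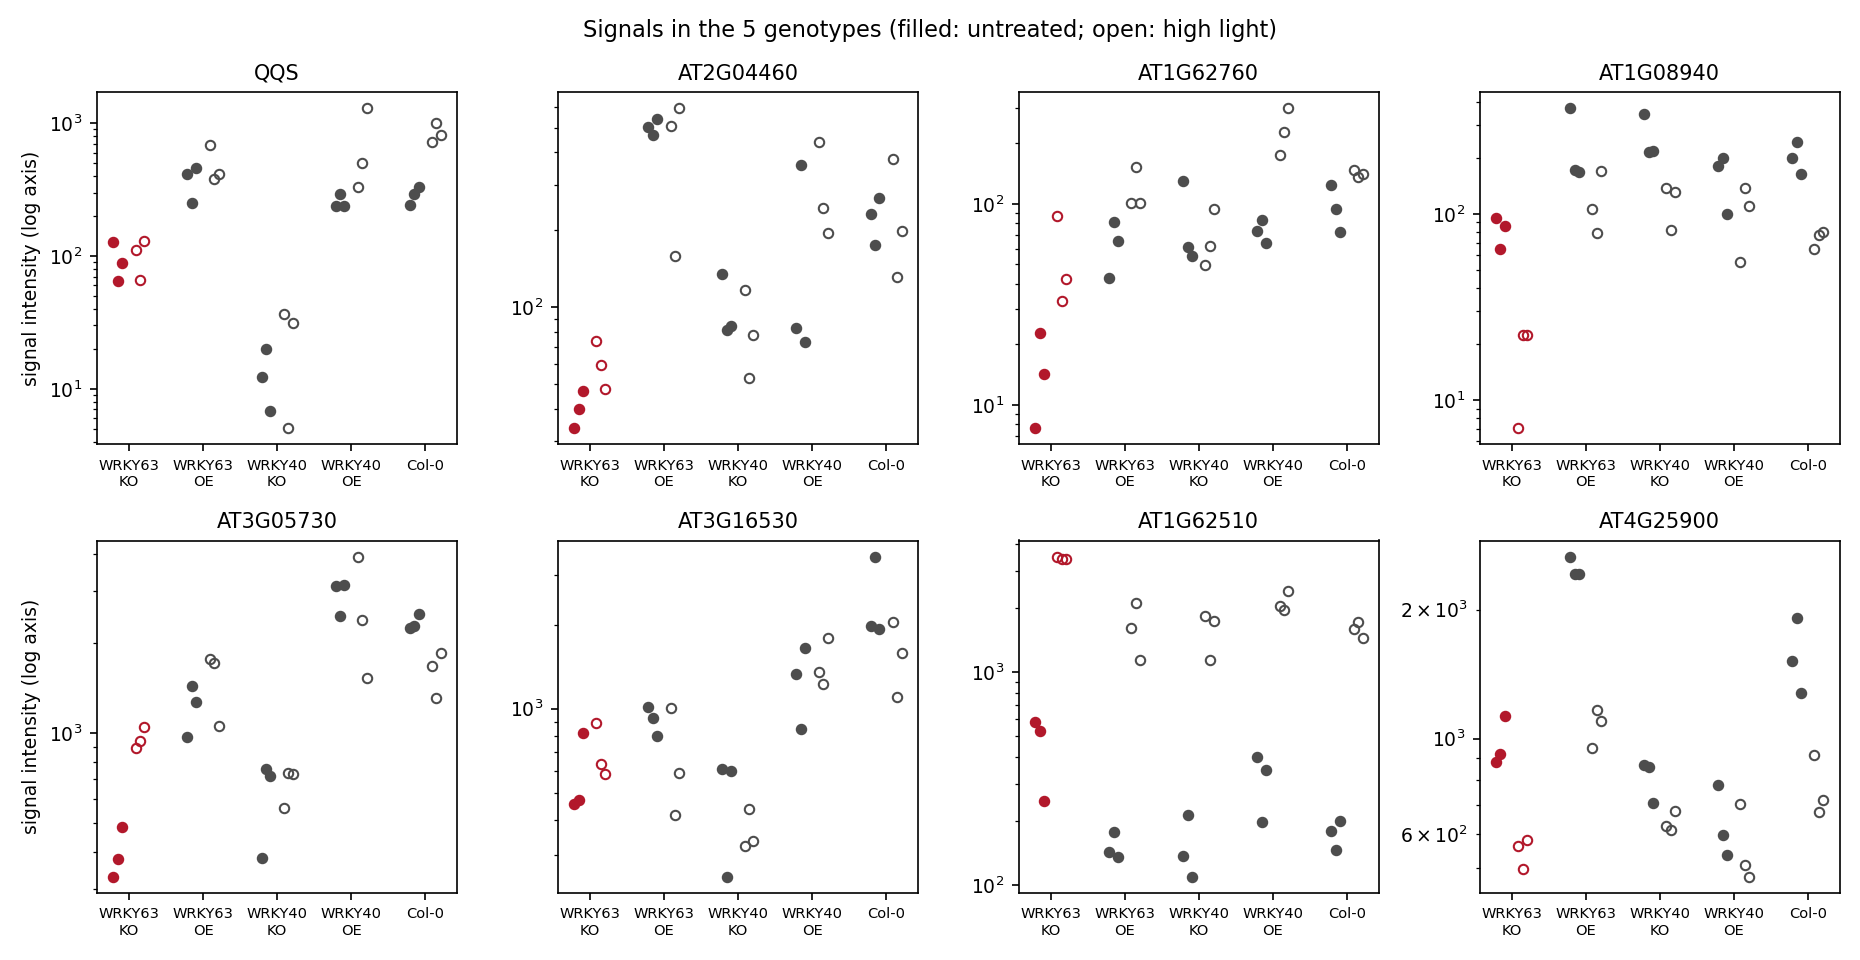
Signal intensity (log axis) in the 5 genotypes for 8 genes called between WRKY63 knockout and Col-0, with 3 untreated arrays (filled) and 3 high light arrays (open) per genotype and the WRKY63 knockout in red. For QQS the WRKY40 knockout lies below the WRKY63 knockout at 5.04 to 36.6, and for AT3G16530 the WRKY40 knockout and the WRKY63 overexpressor lie close to it. AT1G08940 sets the WRKY63 knockout apart from the other 4 genotypes' means. For AT1G62510 the means are apart too, but untreated arrays of the WRKY40 overexpressor overlap those of the WRKY63 knockout.

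Of the remaining named genes without overlap, AT5G20790 was at 103.7, 43.4 and 68.0 in untreated knockout leaves, against 206, 136 and 193 in untreated Col-0 leaves (-1.22 ± 0.22 over both lights, adjusted p = 0.0136). AT2G40960, a protein with an R3H nucleic acid binding domain, was lower by a log2 difference of -0.75 ± 0.16 (adjusted p = 0.0372). Its signals in high light were 562, 543 and 441 in the knockout, against 900, 906 and 815.5 in Col-0. AT5G57785 was higher, at 531, 643 and 461 in untreated knockout leaves, against 205, 235 and 331 in untreated Col-0 leaves (0.99 ± 0.19, adjusted p = 0.0235).

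AT4G25900, a galactose mutarotase-like protein, had 882, 922 and 1132 in untreated knockout leaves, against 1518, 1908 and 1278 in untreated Col-0 leaves (-0.58 ± 0.12, adjusted p = 0.0281). ATERDJ3B, a DnaJ co-chaperone of the endoplasmic reticulum, had 6042, 5707 and 4689 in high light in the knockout, against 7470, 7782 and 6878 in Col-0 (-0.38 ± 0.08, adjusted p = 0.0281). Both were brighter in the WRKY63 overexpressor than in Col-0 when untreated, at 2662, 2424 and 2420 for AT4G25900 and 2476, 2117 and 2208 for ATERDJ3B. In high light the ATERDJ3B signals of the WRKY63 overexpressor, 7311, 6900 and 8140, overlapped Col-0. For AT4G25900 both WRKY40 lines were below the WRKY63 knockout when untreated. The WRKY40 knockout had 867, 859 and 708, and the WRKY40 overexpressor 779, 596 and 536. COAD, the phosphopantetheine adenylyltransferase of coenzyme A synthesis, differed by -0.41 ± 0.08 (adjusted p = 0.0235), and the ceramidase gene ATCES1 by -0.42 ± 0.09 (adjusted p = 0.0281).

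The chloroplast glutathione reductase GR, which regenerates reduced glutathione for the removal of hydrogen peroxide, was higher in the knockout. Its signals were 1800, 2077 and 2183 in untreated knockout leaves, against 1728, 1610 and 1546 in untreated Col-0 leaves. In high light they were 2047, 2331 and 2178 in the knockout, against 1426, 1581 and 1545 in Col-0. The ranges did not overlap in either light, and the rise was small (0.42 ± 0.08, 1.33-fold, adjusted p = 0.0281).

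Stability differed among the 17 genes named by rule or list that were called over both lights. Of these, 7 kept the call under each of the 21 or 22 alternatives in which they were tested: QQS, AT2G04460, AT1G62760, AT1G08940, AT3G05730 and AT3G16530 were lower and AT1G62510 higher, with adjusted p at most 0.0371. AT5G51440 kept it in 21 of 22, AT5G20790 in 18 of 21, AT5G57785 in 17 of 22 and COAD in 15 of 22. GR kept it in 12 of 22, ATERDJ3B and ATCES1 in 11, AT4G25900 in 10 and AT2G40960 in 9. The 39 calls became 11 without WRKY63 knockout untreated replicate 2, 16 and 18 without its high light replicates 3 and 2, 24 without its untreated replicate 1, and 18, 19 and 24 when untreated replicate 2, high light replicate 3 and high light replicate 1 of Col-0 were left out. Of the 39, 11 were called in all 12 fits that left 1 array out.

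**Figure D3:**
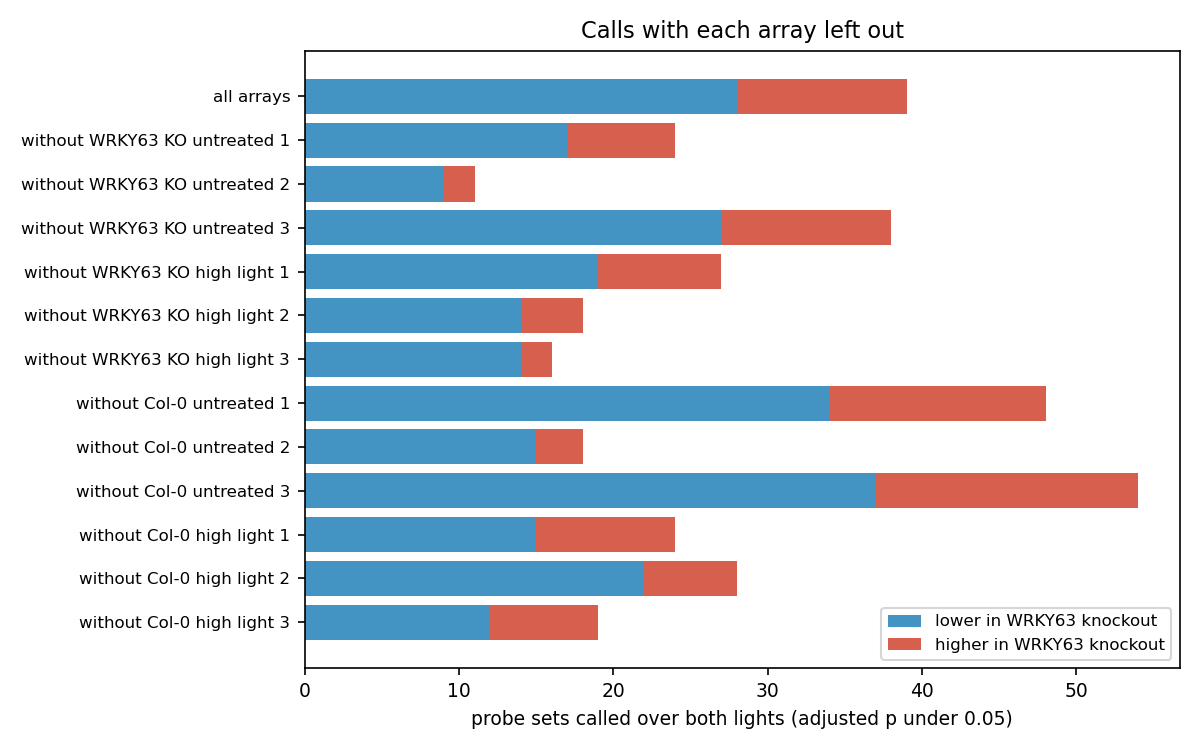
Number of probe sets called over both lights in the fit to all arrays and with each of the 12 WRKY63 knockout and Col-0 arrays left out, split into lower and higher in the knockout. The total of 39 moved between 11, in the fit lacking WRKY63 knockout untreated replicate 2, and 54, in the fit lacking replicate 3 of untreated Col-0, and lower calls outnumbered higher ones in each fit shown.

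Genes for mitochondrial stress proteins are the group with which WRKY63 has been linked. Of 20 listed, 7 had a named probe set and 5 passed the filter on low signal. Of the 5, 1 was called, AT5G51440, beside 0.245% of all probe sets. The median of the 5 was -0.18, beside 0.02 over all probe sets. With 1 call among 5 this is a result about that gene and not about the group. AT5G51440 codes for a small heat shock protein of mitochondria. It read 4.89, 4.49 and 4.19 in untreated knockout leaves, against 67.6, 45.6 and 44.3 in untreated Col-0 leaves. After high light it read 16940, 13330 and 11410 in the knockout, against 16530, 17630 and 15580 in Col-0.

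The genotypes were thus apart before treatment, at signals near or under the filter level of 46.7, and overlapped after it. The gene passed the filter through its high light signals. Over both lights the difference of AT5G51440 was -1.76 ± 0.21 (adjusted p = 5.59e-05), and -0.997 with a pseudocount of 16. It was -3.25 in untreated leaves and -0.27 in high light, where it was not called (limma, adjusted p = 0.879). A fit to the 12 arrays without an interaction term did not call the gene (adjusted p = 0.136). NDB2, an alternative NADH dehydrogenase, had 221.5, 196 and 237 in untreated knockout leaves, against 249.6, 249 and 206.5 in untreated Col-0 leaves (-0.18 ± 0.15 over both lights, adjusted p = 0.739). AT2G21640, a marker of oxidative stress in mitochondria, differed by 0.06 ± 0.21 (adjusted p = 0.967), and its sign turned in 3 of 22 alternatives.

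The plant defensin gene PDF1.2, a marker of jasmonate and ethylene defence, had the largest fitted difference of the 39, and 1 Col-0 array stood far above the others. It had 86.5, 34.9 and 55.9 in untreated knockout leaves, against 243, 6115 and 235 in untreated Col-0 leaves, where the middle value is replicate 2. In high light it had 82.8, 69.1 and 212 in the knockout, against 279, 191 and 341 in Col-0, and the genotypes overlapped. The difference was -2.47 ± 0.54 (adjusted p = 0.0466). Without Col-0 untreated replicate 2 it was -1.69 (adjusted p = 0.0482), and the call was kept in 3 of 21 alternatives. Its near copy PDF1.2b, also brightest on that array at 5383, was not called (-2.20 ± 0.79, adjusted p = 0.287). Signals of such close paralogues on short probes are uncertain. GRX480, a glutaredoxin induced by salicylate, was not called either (-1.04 ± 0.30, adjusted p = 0.164).

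Leaving aside the cell type markers, 20 lists had a member above the filter, and in them 206 probe sets were tested and 2 were called over both lights, 0.971% beside 0.245% of all probe sets. Their median difference was -0.05, beside 0.02 over all probe sets, and 5 of them differed by at least 2-fold. Of the 206, 15 had an unadjusted p under 0.05, as did 1683 of all 15922. In untreated leaves limma called 3 of the 206, beside 0.502% of all probe sets. In high light it called 0, beside 0.0251% of all, with 10 of the 206 and 1321 of the 15922 at an unadjusted p under 0.05. In the interaction it called 1, beside 0.113% of all.

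Heat shock genes, which rise steeply in high light, were not called in the knockout against Col-0. All 8 listed genes with a named probe set, of 21 listed, passed the filter, and limma called 0 over both lights (0 at an unadjusted p under 0.05), with a median of 0.04. Their differences ran from -0.27 for AT2G29500 to 0.74 for AT1G52560, both small heat shock proteins. In untreated leaves 7 of the 8 were above 0 with a median of 0.29. In high light all 8 were below 0 with a median of -0.195, and 1 of them, HSA32, which helps plants keep acquired heat tolerance, had -0.61 (adjusted p = 0.544) with signals of 5405, 7130 and 6573 in the knockout, against 5348, 11610 and 14520 in Col-0. The 2 genotypes overlapped there.

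Dehydration and abscisic acid genes, with which WRKY63 is associated in drought studies, had 5 probe sets above the filter and 0 limma calls over both lights (0 at an unadjusted p under 0.05), with a median of 0.04. COR15A, a chloroplast protein that protects membranes in freezing, had 4168, 6192 and 5401 in untreated knockout leaves, against 3717, 2649 and 6540 in untreated Col-0 leaves. The 95% interval of its difference over both lights ran from -0.54 to 0.64. COR47, a dehydrin, had 0.12 ± 0.14 (adjusted p = 0.84).

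Nuclear photosynthesis genes numbered 10 above the filter, with 0 limma calls over both lights (2 at an unadjusted p under 0.05) and a median of -0.05. They spanned -0.18 to 0.11. PSAN, a subunit of photosystem I, had 14750, 14950 and 12500 in untreated knockout leaves, against 16830, 20510 and 17250 in untreated Col-0 leaves, and was not called there (-0.37, adjusted p = 0.0918). Of the 10, 1 was above 0 in untreated leaves and 7 were above 0 in high light.

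Among other groups, 69 plastid-encoded probe sets had a median of -0.05 and 18 mitochondrion-encoded ones a median of -0.21, each with 0 limma calls over both lights (0 and 3 at an unadjusted p under 0.05). The lowest named mitochondrial transcript by unadjusted p was cox2, a subunit of cytochrome c oxidase (-0.54 ± 0.17, adjusted p = 0.196). No call over both lights fell on the 26 UDP-glycosyltransferases, 12 cytochromes P450, 9 glutathione transferases, 17 cell wall genes or 7 tubulins, with 2, 0, 1, 1 and 1 of them at an unadjusted p under 0.05 in limma. Of the WRKY genes, 5 passed the filter and 0 were called (0 at an unadjusted p under 0.05), WRKY53 being the lowest at -0.40 ± 0.29 (adjusted p = 0.687) and WRKY47 the highest at 0.30 ± 0.26 (adjusted p = 0.757).

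In untreated leaves more probe sets were called than over both lights. Limma called 80 (0.502%), 36 (0.226%) higher and 44 (0.276%) lower, of which 23 were among the 39 and 57 were not. In high light it called 4 (0.0251%), 1 (0.00628%) higher and 3 (0.0188%) lower, of which 3 were among the 39. Of the 39, 28 had the larger difference in untreated leaves. Over all probe sets the differences also spread more in untreated leaves (SD 0.361) than in high light (SD 0.291). Leaving out replicate 2 of untreated Col-0 brought the 80 down to 6. A difference called in 1 light alone is not shown to depend on light, and the interaction below tests that.

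Of the named genes called lower in untreated leaves and not over both lights, the 3 with the largest differences are given here. AT4G39670, of the glycolipid transfer protein family, is described with the interaction below. AT2G42360, a RING finger protein of the ATL family, had 2.91, 3.73 and 1.92 in knockout leaves, against 33.5, 18.4 and 58.4 in Col-0 leaves (adjusted p = 0.0424). The knockout signals and most Col-0 signals were under the filter level of 46.7, so the size of the difference is uncertain: it was -1.415 with a pseudocount of 16, and the call was kept in 2 of 14 alternatives. AT4G00700, a C2 domain protein, had 4.51, 35.0 and 9.95 in knockout leaves, against 57.5, 207 and 106 in Col-0 leaves (-3.08, adjusted p = 0.0471), a call kept in 5 of 14 alternatives. Both were brighter in the untreated WRKY63 overexpressor than in either genotype, at 199, 179 and 139 for AT2G42360 and 463, 434.5 and 421 for AT4G00700. Without Col-0 untreated replicate 2 neither was called (adjusted p = 0.0745 and 0.23).

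Among named genes called higher in untreated leaves and not over both lights, the 3 largest differences were as follows. AT4G21650, a subtilase, which is a secreted serine protease, had 577, 1050 and 987 in knockout leaves, against 211, 154 and 238 in Col-0 leaves (2.09, adjusted p = 0.00686). Its high light signals were 241, 183 and 174 in the knockout, against 243, 208 and 118 in Col-0, and the genotypes overlapped. AT2G20870, a putative cell wall protein, had 4938, 3817 and 5769 in knockout leaves, against 1839, 577.5 and 1985 in Col-0 leaves (1.895, adjusted p = 0.0371). AT3G59845, a zinc-binding dehydrogenase, had 185, 226 and 216.5 in knockout leaves, against 36.3, 14.4 and 65.1 in Col-0 leaves (2.64, adjusted p = 0.0292). For AT3G59845 the untreated WRKY40 knockout was higher still, at 1481, 603 and 914, and both overexpressors were below the WRKY63 knockout. Without Col-0 untreated replicate 2, the lowest of the untreated Col-0 arrays for all 3 genes, the differences were 1.905, 1.32 and 2.08, and none was called (adjusted p = 0.0714, 0.254 and 0.194).

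WSD1, the wax ester synthase of stem epidermis, is listed both as a wax gene and as an epidermis marker. It had 736, 812 and 618 in untreated knockout leaves, against 288, 101.7 and 314 in untreated Col-0 leaves, and was called there (1.77, adjusted p = 0.0098). Without Col-0 untreated replicate 2, its lowest array, the difference was 1.25 and was not called (adjusted p = 0.0745), nor was it without knockout untreated replicate 2 (adjusted p = 0.0629). Over both lights it was not called (0.92 ± 0.23, adjusted p = 0.0866), nor was it against the other 3 lines (0.45 ± 0.19, limma adjusted p = 0.134). The untreated WRKY40 knockout was higher still, at 831, 1013 and 823. Of the overexpressors, that of WRKY40 overlapped the WRKY63 knockout in untreated leaves and that of WRKY63 was below it. FMA, a regulator of guard cell formation and the other epidermis marker (of 7 listed) with a named probe set, had 199, 219.7 and 238 in untreated knockout leaves, against 249, 206.6 and 175 in untreated Col-0 leaves, and was not called. The part of cell makeup in the difference of WSD1 was not tested.

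**Figure D4:**
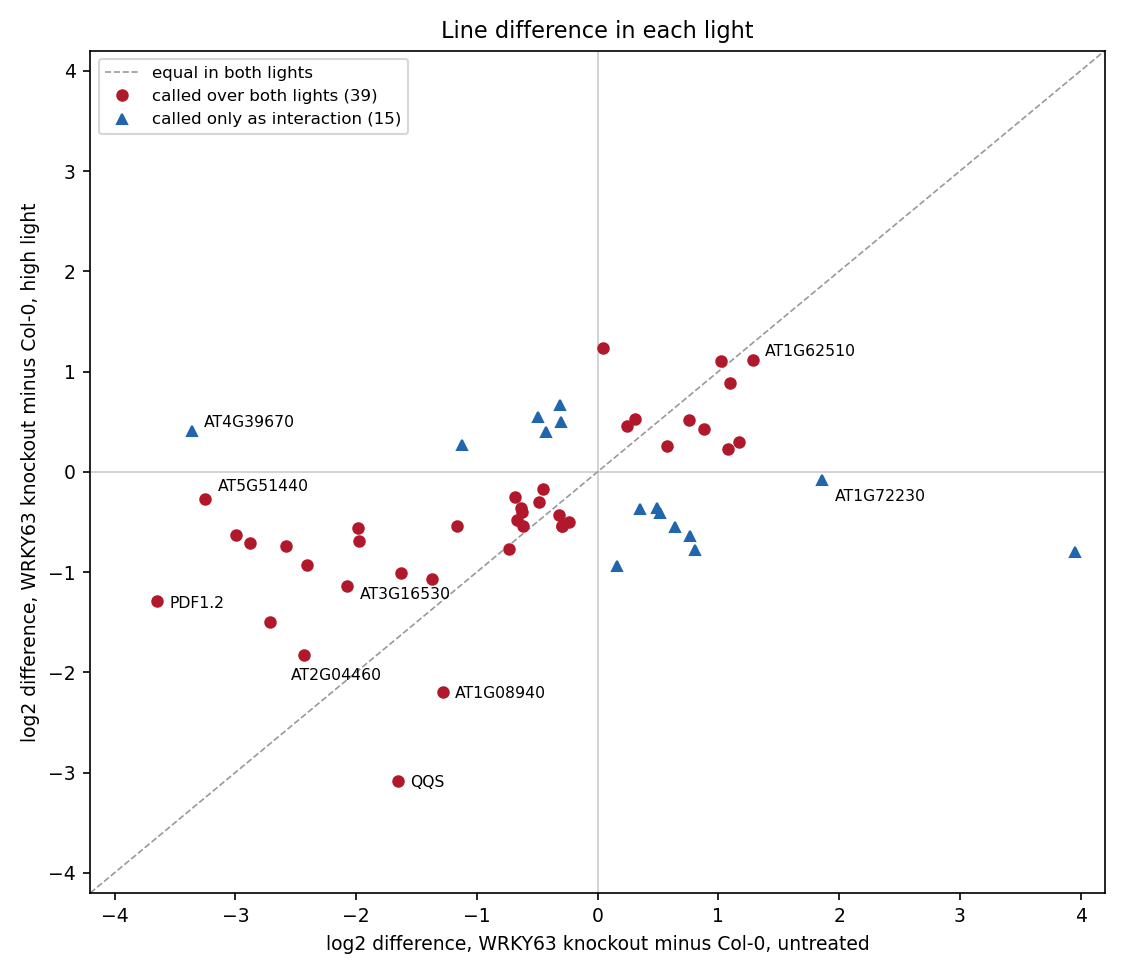
Log2 difference of WRKY63 knockout minus Col-0 in high light (vertical axis) against that in untreated leaves (horizontal axis) for the 39 probe sets called over both lights (circles) and the 15 called in the interaction but not over both lights (triangles), with a dashed line where both lights are equal. The circles keep their sign in both lights, with 28 of 39 larger in untreated leaves, and the triangles lie where the signs are opposite. The way each set was called favours its sign pattern.

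The interaction asks whether the genotype difference depends on light. Limma called 18 probe sets (0.113%), 9 (0.0565%) with a difference more positive in high light and 9 (0.0565%) more negative, and 15 of the 18 had opposite signs in the 2 lights. Calling on the change between lights favours opposite signs, so that count is no separate result. With quantile normalization limma called 6, all more positive in high light. The annotation named 11 of the 18. The count was 1 without the 2 arrays of highest actin ratio and between 1 and 13 with single arrays left out, with 1 call left when any untreated knockout array, any Col-0 high light array or the first knockout high light array was absent, and 3 without Col-0 untreated replicate 2.

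AT5G51440, described above, had the interaction with the smallest adjusted p (2.98 ± 0.42, limma adjusted p = 0.00236), and it kept the call in 20 of 21 alternatives. The exception was a pseudocount of 16, which gave 1.45 (adjusted p = 0.0511). AT4G39670 had the largest positive one. Its untreated signals were 6.19, 5.67 and 7.59 in the knockout, against 27.9, 232 and 65.5 in Col-0. In high light they were 219, 199.8 and 155 in the knockout, against 152.5, 149 and 127 in Col-0. The knockout was thus far below Col-0 in untreated leaves (-3.36, adjusted p = 8.15e-04, or -2.56 and adjusted p = 0.00481 if replicate 2 of untreated Col-0 is left out) and slightly above it in high light (0.41), an interaction of 3.77 ± 0.66 (limma, adjusted p = 0.0444). The interaction was 2.47 with a pseudocount of 16 and was not called (adjusted p = 0.0672). All untreated knockout signals were under the filter level of 46.7, so the size of the untreated difference is uncertain. Across the alternatives it ran from -4.065 to -2.097, and its call was kept in 13 of 14 (limma, adjusted p up to 0.166).

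AT1G72230, a cupredoxin family protein, went the other way. It had 1231, 1409 and 1030 in untreated knockout leaves, against 388, 263 and 365 in untreated Col-0 leaves. In high light it had 460.4, 552 and 515 in the knockout, against 579.7, 569.8 and 467 in Col-0. The genotypes were apart in untreated leaves (1.86, adjusted p = 0.00183) and overlapped in high light (-0.08), an interaction of -1.94 ± 0.40 (limma, adjusted p = 0.0499) that was called in 2 of 21 alternatives. Among untreated leaves the WRKY40 knockout was brighter still, at 3232, 1547 and 2302, and both overexpressors were below the WRKY63 knockout. Over both lights the WRKY63 knockout was not called against the other 3 lines (0.30 ± 0.16, limma adjusted p = 0.286).

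AT1G76185 was the named gene called in high light and not over both lights. Its signals there were 99.7, 79.5 and 90.8 in the knockout, against 184, 168 and 168 in Col-0 (-0.94, limma adjusted p = 0.0166). Untreated leaves had 256, 189.7 and 208 in the knockout, against 199, 204 and 178.5 in Col-0. The 2 genotypes did not overlap in high light and overlapped in untreated leaves. The high light call was kept in 8 of 15 alternatives, with adjusted p up to 0.153, and was lost without any 1 of the Col-0 high light arrays (adjusted p = 0.127, 0.0532 and 0.0699) and without knockout high light replicate 2 (adjusted p = 0.144).

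Further genes changed order between the lights. FUG1, a translation initiation factor of chloroplasts, had 3412, 3362 and 3054 in untreated knockout leaves, against 4491, 4261 and 4486 in untreated Col-0 leaves. The high light arrays gave 3409, 4529 and 3914 in the knockout, against 2962, 2760 and 3220 in Col-0. The knockout was thus below Col-0 in untreated leaves and above it in high light, without overlap in either, though neither light was called on its own (interaction 0.83, limma adjusted p = 0.0499). The FUG1 call was kept in 1 of 21 alternatives and in none of the 12 that left out an array.

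AT2G47390, a prolyl oligopeptidase family protein of the chloroplast, had 1360, 1420 and 1411 in untreated knockout leaves, against 1644, 1879 and 1646 in untreated Col-0 leaves. The high light arrays gave 1044, 1030 and 1090 in the knockout, against 715, 768 and 764.5 in Col-0 (interaction 0.79, limma adjusted p = 0.0444), a call kept in 8 of 21 alternatives. AT1G02300, a cathepsin B-like cysteine protease, crossed in the other direction, with 638, 629 and 674 in untreated knockout leaves, against 440.4, 474.5 and 444 in untreated Col-0 leaves. Its high light signals were 197, 184 and 160.1 in the knockout, against 238, 246 and 236 in Col-0 (interaction -0.93, limma adjusted p = 0.0499), a call kept in 1 of 21.

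**Figure D5:**
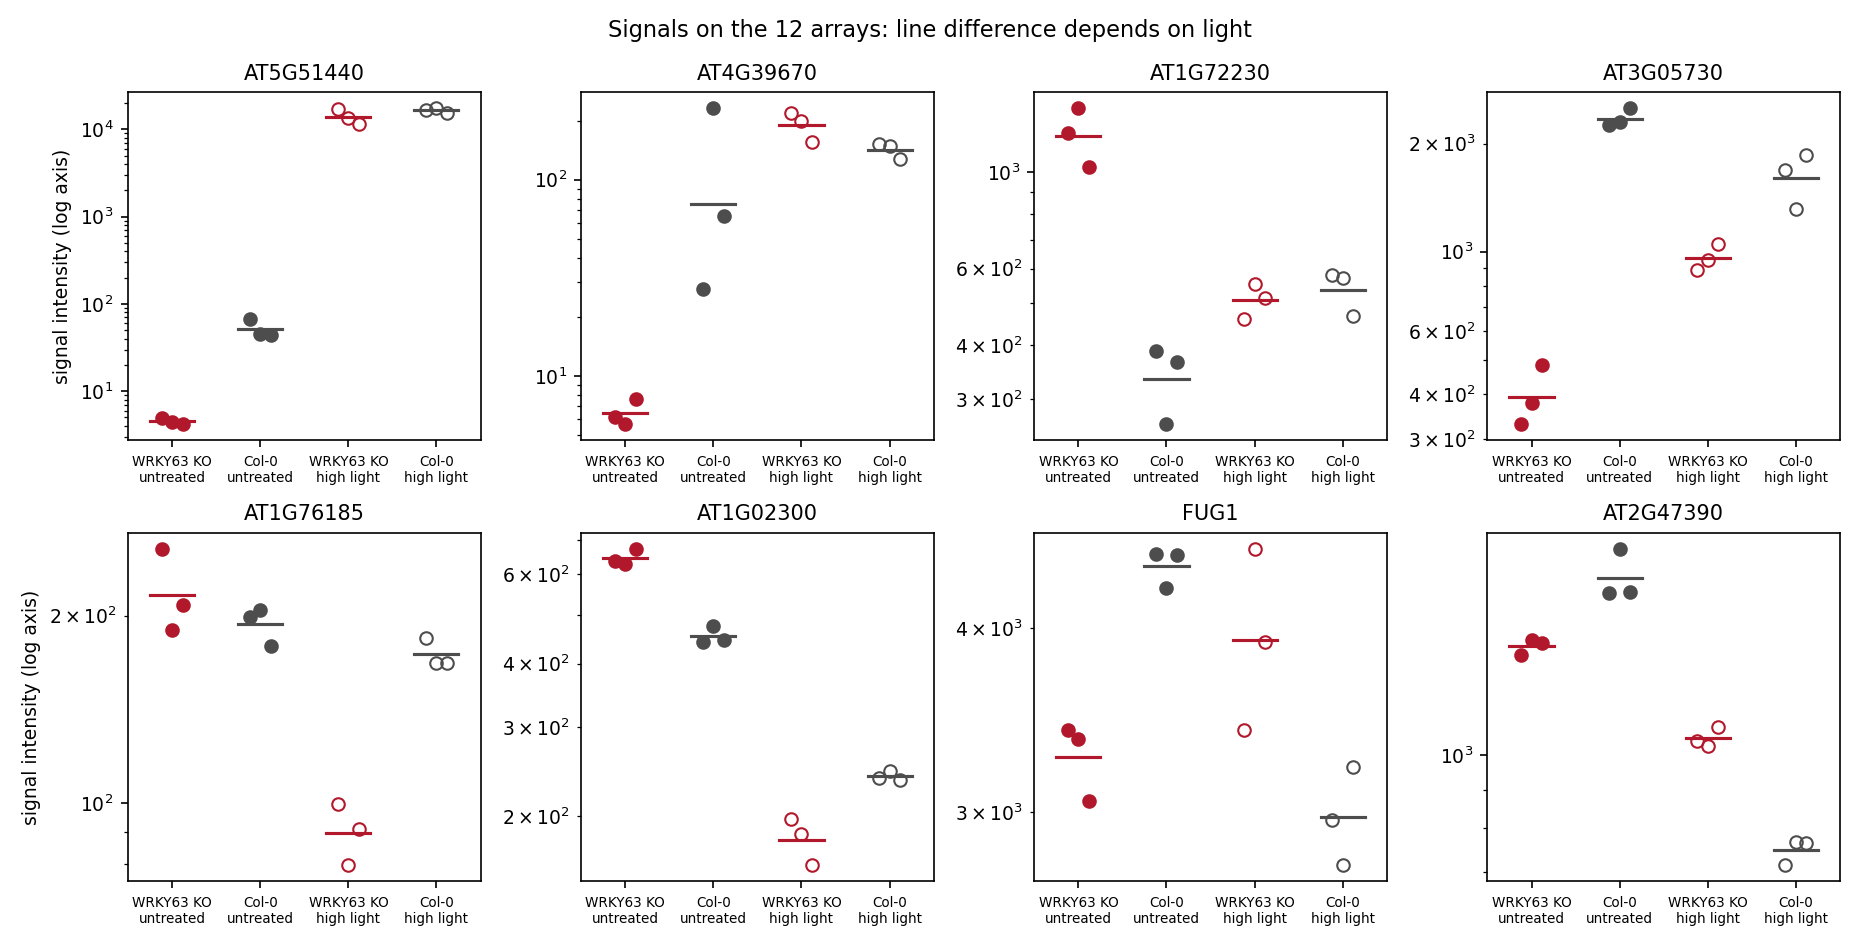
Signal intensity (log axis) on each of the 12 arrays for 8 genes called in the interaction of genotype and light, with WRKY63 knockout in red and Col-0 in grey, untreated arrays filled, high light arrays open, and the mean of log2(signal) as a bar. AT5G51440 and AT3G05730 lie farther below Col-0 in untreated leaves than in high light, while AT4G39670, FUG1, AT2G47390 and AT1G02300 change order between the lights.

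Beside the 39 calls against Col-0, the knockout differed from the mean of the other 3 lines in 1825 probe sets (11.5%, 5.83% higher and 5.63% lower), and the WRKY63 overexpressor differed from the knockout in 3058 (19.2%, 9.35% higher and 9.85% lower). The comparison with 3 lines rests on 18 arrays of other genotypes, and all of these comparisons share the 6 knockout arrays. Among the 7 genes that kept their call, AT2G04460, AT1G62760, AT1G08940 and AT3G05730 were also called lower, and AT1G62510 higher, against the 3 lines. AT1G62760 differed from the 3 lines by -1.77 ± 0.23, beside -2.10 ± 0.28 from Col-0. In high light the WRKY40 knockout overlapped the WRKY63 knockout for this gene, at 49.6, 61.6 and 93.8. In untreated leaves the WRKY40 knockout was above it, at 130, 60.9 and 54.8. QQS and AT3G16530 were not called against the 3 lines, and whether the 2 comparisons differ was not tested.

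WRKY63 lies on chromosome 1. Among named probe sets of the 100 protein-coding genes on each side of it, 62 were tested and 0 were called by limma over both lights, beside 0.245% of all probe sets. At that share 0 calls among 62 says little about the region. Of the 62, 5 had an unadjusted p under 0.05 in limma, beside 1683 of all 15922. Their differences ran from -0.985 to 1.03 with a median of -0.01. The named genes called over both lights that have a locus in the gene table lay on all 5 chromosomes, with 4 of 2288 on chromosome 1, 4 of 1261 on chromosome 2, 6 of 1769 on chromosome 3, 2 of 1277 on chromosome 4 and 5 of 2065 on chromosome 5. Those on chromosome 1, AT1G62760, AT1G62510, AT1G36320 and AT1G08940, lie 419, 443, 2102 and 4808 protein-coding genes from WRKY63.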

How the data were processed

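Leaf RNA of the 12 WRKY63 knockout and Col-0 arrays was fitted together with the other 18 arrays of the series. The deposited values are linear signal intensities, 1 per probe set, which the authors computed with MAS5, as the submitters' processing notes name it. No MAS5 version or settings were found in the labels. With 2 percent of probe sets trimmed at each end, the mean deposited intensity was 499.8 on all arrays. No detection calls were used, so low signals were limited by a filter.

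In R 4.3.3 with limma 3.58.1, 64 control probe sets were left out, log2(signal + 1) was taken, and 15922 of 22746 probe sets were kept, whose mean reached the 30th percentile or more (46.7 as a signal). A mean for each of 10 groups was fitted to all 30 arrays with eBayes and a variance trend. The log2 scale with this pseudocount understates changes of dim probe sets. The difference over both lights is the mean of the 2 within-light differences. The 6 comparisons are this one, each light, the interaction, the knockout against the mean of 3 other lines, and WRKY63 overexpressor minus knockout. The number of arrays limits the precision.

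Gene names are those of the platform annotation, possibly outdated, updated by gene ID through the TAIR10.1 RefSeq gene table (13436 matched): 13513 name 1 gene, 503 several and 8730 none. The table was used for names, gene types and gene order only. Named genes are the 12 largest rises and 12 largest falls, or all if fewer, among called probe sets of 1 gene without overlap in either light; from each of 26 lists, at most 3 called members per direction; NDB2, AT2G21640 and AT5G51440 always; the 6 and 6 largest in the interaction; and the 3 and 3 largest called in 1 light and not over both. WSD1, FMA, PSAN, HSA32, cox2 and the other list members named without a call were picked as examples after their values were seen. Of 251 listed gene IDs 43 had a named probe set. The members, the lists and the tests were chosen with earlier results of these data known, and some list patterns were corrected after the annotation was read. Same-numbered replicates were not treated as pairs, since no label says that the numbers mark shared material. Their deviations from the group means correlated between -0.021 and 0.271, with 2 of 6 above 0.1. Without such values for replicates of different number, these cannot show whether same-numbered replicates share material. The fitting steps were tested on simulated data. Alternatives changed the pseudocount (16), the filter (none, 50th percentile), the scaling (quantile), the variance trend, the arrays in the fit, the replicate block, the additive model, and left out single arrays or the 2 arrays of highest actin ratio. Leaving out the 2 arrays highest by the second actin probe set pair was chosen after seeing the data.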

Additional observations from a re-analysis of the deposited data

Results flagged for a closer look

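In 11 named genes the test of the interaction found that the difference of WRKY63 knockout and Col-0 was not the same in the 2 lights (limma, adjusted p from 0.00236 to 0.0499). Values are the high light difference minus the untreated difference on the log2(signal + 1) scale. More positive in high light were AT4G39670 (3.77), AT5G51440 (2.98), AT3G05730 (1.84), AT5G52960 (1.05), FUG1 (0.83) and AT2G47390 (0.79). More negative in high light were AT1G72230 (-1.94), AT5G25475 (-1.19), AT1G76185 (-1.10), AT1G02300 (-0.93) and AT5G66950 (-0.85).

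AT5G25475, a B3 domain transcription factor, had 310.3, 341 and 254 in untreated knockout leaves, against 206, 182 and 187 in untreated Col-0 leaves. In high light it had 217, 158 and 156 in the knockout, against 237, 239 and 296 in Col-0. AT5G66950, a pyridoxal phosphate-dependent enzyme family member, had 629, 605 and 611.5 in untreated knockout leaves, against 397, 415 and 506 in untreated Col-0 leaves, and 259, 238 and 230 in the knockout in high light, against 289, 301 and 347 in Col-0. AT5G52960 had 1277, 1320 and 923 in untreated knockout leaves, against 1461, 1753 and 1701 in untreated Col-0 leaves, and 1563, 1743 and 1679 in the knockout in high light, against 1126, 1037 and 1245 in Col-0. In each of these 3 genes the genotypes did not overlap in either light and changed order between them. AT5G51440 kept its call in 20 of 21 alternatives, AT4G39670 in 8 of 20, AT2G47390 in 8 of 21, AT5G66950 in 5 of 21 and the other 7 in 1 to 3 of 21.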

How the results depend on the processing

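The 39 calls over both lights were 24 on only the 12 arrays compared, 16 without a variance trend, 17 without the 2 arrays of highest actin ratio (Col-0 untreated replicate 2 and WRKY63 overexpressor high light replicate 3), 21 without the 2 highest by the second actin probe set pair, and 11 with additive line and light on 12 arrays. The 24 held 13 higher and 11 lower. With single arrays left out they ranged from 11 to 54. The 80 calls in untreated leaves were 17 on only the arrays compared, 4 without the 2 arrays of highest actin ratio, and 6 to 111 with single arrays left out. The 6 came without Col-0 untreated replicate 2, and there were 25 and 21 without WRKY63 knockout untreated replicates 1 and 2. The 4 calls in high light were 2 with no filter, 2 with the filter at the 50th percentile, 2 on only the arrays compared, 1 by the second actin pair, and 1 to 10 with single arrays left out (10 without WRKY63 knockout replicate 3, 1 without its replicate 2, 1 and 2 without Col-0 replicates 3 and 1). The 18 calls of the interaction were 6 with a pseudocount of 16, 5 with no filter, 6 with quantile normalization, 10 on only the arrays compared, 6 without a variance trend, 1 without the 2 arrays of highest actin ratio, 1 by the second pair, and 1 to 13 with single arrays left out (5 and 4 without WRKY63 knockout high light replicates 2 and 3). With the replicate number as a block there were 36 calls over both lights, 79 untreated, 3 in high light and 5 in the interaction. The counts against the other 3 lines (1253 to 2033) and for the overexpressor (2459 to 3135) stayed within 1.5 times. AT2G21640, not called, turned to -0.125 without Col-0 untreated replicate 3, -0.035 without Col-0 high light replicate 1 and -0.014 without WRKY63 knockout high light replicate 1, and reached 0.261 without Col-0 untreated replicate 2. The causes were not tested.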
